A study of Mus musculus with 10 samples.

Results

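The clonotypes described here are IgG heavy-chain rearrangements whose V segment differed from its germline gene at 4 or more bases. They were read from bulk B cell receptor libraries of the deep cervical lymph nodes, which drain the brain, of wild-type C57BL/6 mice that carried an intracranial GL261 tumour. GL261 is a mouse glioma cell line. An isotype antibody was given to 5 of the 10 mice and an antibody against the checkpoint receptor CTLA-4 to the other 5, and nodes were taken on day 20. All 10 mice carried the tumour, RNA came from all cells of the node rather than from sorted B cells, and the labels give no dose, schedule, age or sex. A clonotype is 1 combination of V gene, J gene and junction in 1 mouse, and a combination found in several mice was given to the mouse with most counts. Of 3954 IgG clonotypes with at least 200 aligned V bases, 734 (18.6%) had 4 or more mismatches in their most counted row and are called the members. At the edge of this choice, 188 clonotypes had 4 mismatches and 251 had 3. For comparison, 1661 IgG clonotypes had no mismatch (unmutated) and 1559 had 1 to 3 (weakly mutated).

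In a germinal centre, activation-induced deaminase (AID) deaminates cytosines in the V segment of dividing B cells, most often at the C of AAC, AGC, TAC or TGC or at the G of the complementary motif on the other strand. Error-prone repair by polymerase eta then adds changes at A and T, mostly at the A of AA or TA. B cells whose altered receptor binds better are kept, so replacements collect in the complementarity-determining regions (CDR), which touch antigen, while replacements in the framework regions (FR), which hold the fold, tend to be lost. Class switching to IgG uses the same enzyme on the constant region.

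The mismatch count may not always stand for somatic mutation. For this, 3 kinds of member were set apart, called doubtful below, and left out in some comparisons. The joint call to IGHV14-1 and IGHV14-2 carried the same 8 changes from its assigned germline in members and in IgM: G38A, C121A, T171A, G175A, G189A, G210A and T213A were each in 99.7% to 99.9% of its 1867 IgM clonotypes, and A289G was in 73.4%. Positions count from 1 at the first base of FR1, with the germline base before and the observed base after the position. Of the 60 members with this call, 57 fell below 4 mismatches when changes carried by more than 50% of a call's IgM clonotypes were left out. IGHV1-69 had 1 such change, T202G, in 99.9% of 5704 IgM clonotypes, which removed 4 more members. This left 673 members, and this setting is named below as germline variants left out. Counted over all members, so that the kinds overlap, 41 members had a junction that carried more counts with another V gene in the same mouse, against 16 weakly mutated and 9 unmutated clonotypes. Of these 41, 23 were in anti-CTLA-4 replicate 3 and 10 in anti-CTLA-4 replicate 1. Likewise, 24 members had gaps in the V alignment. Whether the mismatches of the junction copies and of the gapped members are somatic was not tested. Leaving out all 3 kinds left 621 members, from 97 in anti-CTLA-4 replicate 2 down to 27 in anti-CTLA-4 replicate 3.

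The following stretches run from 6 bases before CDR1 to 6 bases after CDR2 (bases 70 to 180 of V), written 5′ to 3′, with each base that differs between germline and member in capitals. The first set compares the most counted member of each group, both built on IGHV1-26, with the germline bases assigned to it.
IGHV1-26 germline: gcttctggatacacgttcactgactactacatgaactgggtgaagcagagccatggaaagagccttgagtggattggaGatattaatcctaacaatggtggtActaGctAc
isotype replicate 1: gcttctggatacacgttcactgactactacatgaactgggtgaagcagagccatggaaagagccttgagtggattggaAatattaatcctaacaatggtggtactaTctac
anti-CTLA-4 replicate 1: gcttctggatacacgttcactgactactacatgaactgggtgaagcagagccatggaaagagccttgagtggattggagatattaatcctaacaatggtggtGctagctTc

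The second set shows a densely mutated V segment without gaps and without a junction copy, the most counted IGHV1-9 member of anti-CTLA-4 replicate 1 (142 counts, 17 mismatches), chosen after its values were seen.
IGHV1-9 germline: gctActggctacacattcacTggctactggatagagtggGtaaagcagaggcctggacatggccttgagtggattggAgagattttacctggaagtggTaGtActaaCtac
IGHV1-9 member: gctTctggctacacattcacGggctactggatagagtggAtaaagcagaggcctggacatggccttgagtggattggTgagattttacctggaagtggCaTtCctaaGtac

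The third set shows the alignment with the most mismatches of all, 55, called IGHV1-59 and seen with 1 count in anti-CTLA-4 replicate 1. It had 22 gap positions, its junction was more counted with another V gene, and 26 of its differences lay in this window, most of them before base 123.
IGHV1-59 germline: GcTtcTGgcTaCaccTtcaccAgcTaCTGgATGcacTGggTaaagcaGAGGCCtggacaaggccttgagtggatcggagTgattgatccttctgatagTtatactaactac
IGHV1-59 member: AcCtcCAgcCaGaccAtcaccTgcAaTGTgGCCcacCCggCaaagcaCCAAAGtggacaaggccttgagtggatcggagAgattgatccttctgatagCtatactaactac

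The last pair shows the IGHV14-1 and IGHV14-2 joint call in its most counted member, of anti-CTLA-4 replicate 3 (367 counts), whose 3 differences in this window are all among the changes carried by IgM.
IGHV14-1,IGHV14-2 germline: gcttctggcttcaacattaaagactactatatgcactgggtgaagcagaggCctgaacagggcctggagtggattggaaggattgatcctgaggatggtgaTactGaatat
IGHV14-1,IGHV14-2 member: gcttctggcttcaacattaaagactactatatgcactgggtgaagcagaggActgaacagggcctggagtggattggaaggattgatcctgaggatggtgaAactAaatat

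Members were found in all 10 mice. Isotype replicates 1 to 5 held 64, 71, 96, 30 and 75 members, out of 290, 441, 496, 119 and 159 IgG clonotypes. Anti-CTLA-4 replicates 1 to 5 held 96, 126, 66, 53 and 57, out of 521, 781, 603, 194 and 350. The groups overlapped throughout, and the mean number was 67.2 ± 23.97 (SD, n = 5) in isotype mice and 79.6 ± 30.9 (SD, n = 5) in anti-CTLA-4 mice (two-sided exact permutation test, p = 0.508). Without anti-CTLA-4 replicate 2 the difference of 12.4 was 0.8, without isotype replicate 4 it was 3.1, and with the 3 kinds of doubtful member left out the means were 61.6 ± 22.2 and 62.6 ± 28.5. As a share of each mouse's IgG clonotypes, members ran from 10.9% (95% Wilson interval 8.70 to 13.7) in anti-CTLA-4 replicate 3 to 47.2% (39.6 to 54.9) in isotype replicate 5. The mean share was 26.0% ± 12.3 in isotype and 17.8% ± 5.98 in anti-CTLA-4 mice. This difference did not pass the test (exact permutation p = 0.222, adjusted over 3 abundance measures 0.333). Without isotype replicate 5 the difference went from -8.16 to -2.86 percentage points. Intervals here cover counting error only.

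By counts, members held a smaller share of IgG in most anti-CTLA-4 mice, but the difference did not pass the test. The count deposited with each row was summed over a clonotype's rows. Members made up 11.5%, 2.67%, 3.04%, 4.97% and 24.9% of IgG counts in isotype replicates 1 to 5, and 0.878%, 2.02%, 0.384%, 5.68% and 0.424% in anti-CTLA-4 replicates 1 to 5. Of the anti-CTLA-4 mice, 4 lay below every isotype mouse and replicate 4 lay among them. The means were 9.42% ± 9.36 and 1.88% ± 2.23 (SD, n = 5 each, exact permutation p = 0.0714, adjusted p = 0.214). With 3 mismatches as the minimum in place of 4, the difference passed (adjusted permutation p = 0.0476), and over all alternatives its adjusted p ran from 0.0476 to 0.468. Without isotype replicate 5 the difference went from -7.54 to -3.67 percentage points. A share of RNA counts cannot tell fewer cells of a type from less RNA per cell. The total moved with the result: the 3 mice with the highest share outside isotype replicate 1 (isotype replicates 4 and 5 and anti-CTLA-4 replicate 4) had 5934, 11093 and 13322 IgG counts, while the other 7 had 58017 to 288236, and the part of this in the difference was not tested.

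**Figure D1:**
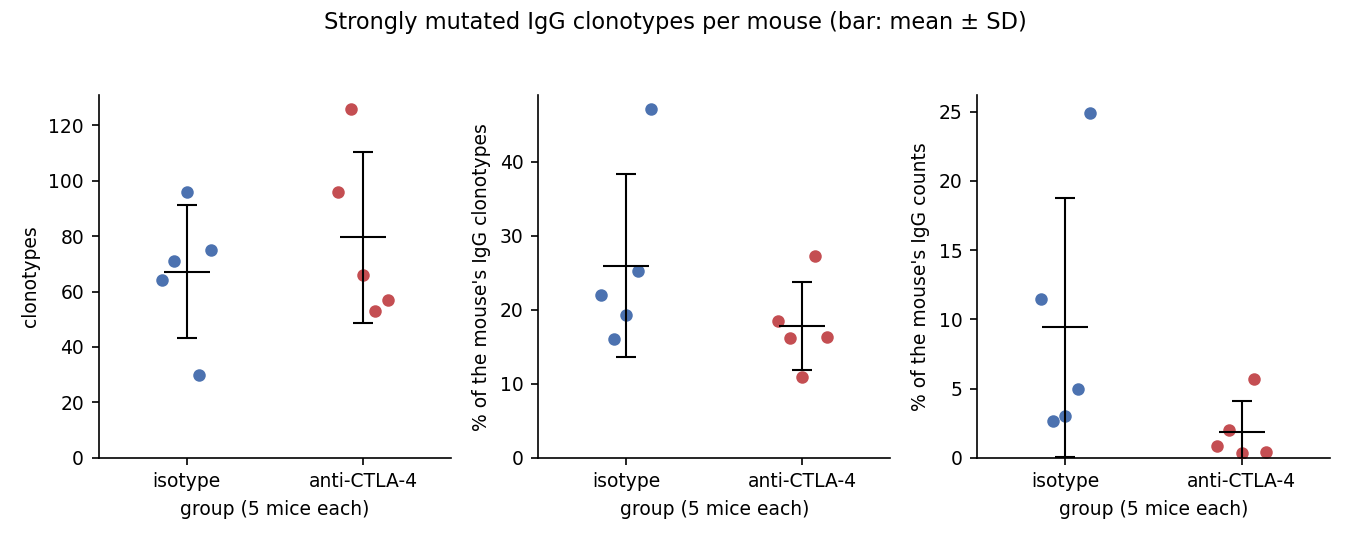
Number of strongly mutated IgG clonotypes per mouse (left), their share of the mouse's IgG clonotypes in percent (middle) and their share of its IgG counts in percent (right), 5 mice per group, with mean and SD bars cut at 0. The groups overlap in all 3 panels, and isotype replicate 5 is highest in both shares, at 47.2% and 24.9%.

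Most members were rare, and a few were large. The median count of a member was 2, and 345 of 734 (47.0%) had a count of 1, against 26.1% of unmutated and 58.5% of weakly mutated clonotypes. A total of 42 members reached 100 counts, 28 of 336 in isotype and 14 of 398 in anti-CTLA-4 mice. The share of all IgG clonotypes that reached 100 counts is not given here, so no group difference is read from this split. The largest member, in isotype replicate 1, was an IGHV1-26 and IGHJ2 clonotype of IgG2a/c. It had 5348 counts in 39 rows, which was 54.8% of that mouse's member counts. Its 5 mismatches, G30A, A38G, G148A, G176T and T238A, all lay in framework, and 4 changed the residue. The same rearrangement was also seen in 2 other mice and was assigned to this one by its counts. The next, also IgG2a/c of isotype replicate 1, was an IGHV1-37 and IGHJ1 clonotype with 2130 counts and 6 mismatches. After it came an IGHV1-72 and IGHV1-62-3 joint call with IGHJ3 of isotype replicate 5, IgG2a/c with 1733 counts, 62.7% of that mouse's member counts. Its 5 mismatches (G70A, G77A, A160G, A176T, A194T) all changed the residue. The most counted anti-CTLA-4 member was the IGHV1-26 and IGHJ3 clonotype of replicate 1 shown above, IgG2b with 990 counts and A172G, A179T, A239T and G274A. Without the most counted member of each mouse, the mean share of IgG counts was 4.85% ± 3.70 in isotype and 1.37% ± 1.67 in anti-CTLA-4 mice (SD, n = 5 each).

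The leading members of the other 7 mice held 66 to 542 counts. Those of isotype replicates 2 and 3 each carried 8 mismatches, on IGHV1-55 (542 counts) and IGHV1-53 (296 counts), and 8 and 7 of these changed the residue. The leading member of isotype replicate 4, on IGHV14-3 with 118 counts, had 5 framework mismatches of which 1 changed the residue. IGHV5-9-1 with IGHJ4 gave the leading member of anti-CTLA-4 replicate 2 (508 counts, 8 mismatches) and of replicate 5 (66 counts, 5 mismatches), with different junctions of 42 and 36 bases. In anti-CTLA-4 replicate 4 it was IGHV1-82 with 205 counts and 4 mismatches. In anti-CTLA-4 replicate 3 it was the IGHV14-1 and IGHV14-2 member shown above, all of whose 8 mismatches were changes carried by IgM.

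Members used 67 first-listed V genes, and 420 of 734 (57.2%) were of the IGHV1 family, the largest mouse V family. The family's share of all IgG clonotypes is not given here, so this share is not read as a trait of the members. IGHV14-1 led with 75 members in 8 mice, of which 63 were joint calls and 18 remained with germline variants left out. IGHV1-80 followed with 62 in 6 mice, but 44 of them were in isotype replicate 5. IGHV1-26 and IGHV9-3 had 34 each, both in 7 mice. IGHV1-69 had 28, IGHV1-5 and IGHV1-64 24 each, IGHV1-72 23, IGHV1-9 22, and IGHV1-55 and IGHV6-3 21 each. The 24 IGHV1-64 members were spread over 20 lineages and 9 mice. The members' share of a V gene's IgG clonotypes was 18.6% over all genes. It was 66.4% for IGHV14-1, or 15.9% when its members were counted with germline variants left out, 42.0% for IGHV6-3 and 38.0% for IGHV1-80, and 15.0% for IGHV1-9 and 15.7% for IGHV1-55. IGHV6-3 had only 50 IgG clonotypes, and 12 of its 21 members were in isotype replicate 2. IGHV10-1, chosen after its values were seen, had 19 members, 16 in isotype replicate 3 and 3 in isotype replicate 4.

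V gene use of the members was not shown to differ between the groups. Of 23 V genes with at least 10 members in at least 3 mice, 0 (0%) passed an adjusted p of 0.05 in the exact permutation test, and 0 had an unadjusted p under 0.05 (smallest p = 0.0556, smallest adjusted p = 0.707). IGHV1-5 made up 5.98% ± 7.21 of members in anti-CTLA-4 and 0.490% ± 0.683 in isotype mice (SD, n = 5 each), with 12 of its 24 members in anti-CTLA-4 replicate 1 and 8 in replicate 4. IGHV1-80 made up 2.56% ± 3.66 and 12.8% ± 25.7, with 44 of its 62 members in isotype replicate 5.

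IgG2b was the most frequent subclass. By the most counted row, 345 members were IgG2b, 145 IgG2a/c, 123 IgG1 and 81 IgG3, and 40 had a call to several subclasses. IgG2b made up 45.3%, 32.4%, 40.6%, 53.3% and 70.7% of members in isotype replicates 1 to 5, and 61.5%, 27.8%, 36.4%, 64.2% and 57.9% in anti-CTLA-4 replicates 1 to 5. Of the 53 IgG2b members of isotype replicate 5, the highest mouse, 44 were of 1 IGHV1-80 lineage. The groups overlapped fully, with means of 48.5% ± 14.5 and 49.5% ± 16.4 (exact permutation p = 0.929). The other subclasses each had a mouse that stood out. IgG1 was 45.2% of members in anti-CTLA-4 replicate 2 and 27.1% in isotype replicate 3, against 3.77% to 19.7% in the other 8 mice. IgG3 was 33.8% in isotype replicate 2 and 23.3% in isotype replicate 4, against 3.13% to 13.2% elsewhere. IgG2a/c was 39.1% in isotype replicate 1. None of the 4 subclasses passed the group test (adjusted permutation p from 0.836 to 0.929), and the direction of the IgG2b, IgG2a/c and IgG1 differences turned when single mice were left out. Rows of more than 1 subclass were seen for 102 of the 207 members with several rows.

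**Figure D2:**
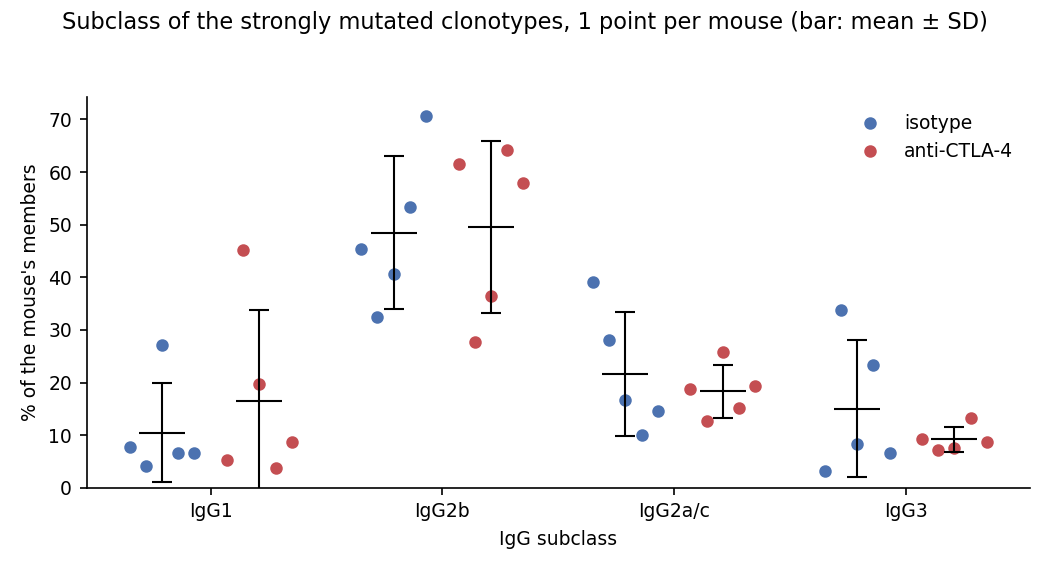
Share of each mouse's strongly mutated clonotypes in each IgG subclass, in percent, 1 point per mouse with mean and SD bars cut at 0. IgG2b ran from 27.8% to 70.7% and was the largest subclass in 8 of 10 mice, and the groups overlap in every subclass.

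Within mice, members leaned to IgG2b without passing the test. The IgG2b share averaged 49.0% ± 14.6 in members, 42.3% ± 9.21 in unmutated and 41.0% ± 11.9 in weakly mutated clonotypes (SD, n = 10). It was higher in members in 7 of 10 mice against unmutated (paired exact permutation p = 0.0742, adjusted p = 0.134) and in 9 of 10 against weakly mutated ones (p = 0.0547, adjusted p = 0.128). Against weakly mutated clonotypes it passed without isotype replicate 1 (10.4 percentage points, adjusted permutation p = 0.0273) and with 6 or more mismatches (8.01 points, 0.0410), with a range over alternatives of 0.0273 to 0.805. IgG2a/c was lower in members than in unmutated clonotypes in 9 of 10 mice, 20.0% ± 8.71 against 26.8% ± 9.83 (adjusted permutation p = 0.134 over 8 measures). That mean difference passed without isotype replicate 1, the mouse with the highest IgG2a/c share (a difference of -9.57 percentage points, adjusted permutation p = 0.00781, range over alternatives 0.00781 to 0.289). IgG1 and IgG3 did not pass either comparison.

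The mismatches were enriched at AID motif bases, although most lay at other bases. Motif bases were the C of AAC, AGC, TAC or TGC and the G of GTT, GTA, GCT or GCA, read on the germline, so both strands were covered. They made up 14.6% ± 0.454 of the members' aligned germline V bases and 37.3% ± 7.19 of their mismatches (SD, n = 10). The share of mismatches at these bases was 45.3%, 38.0%, 35.8%, 37.3% and 47.6% in isotype replicates 1 to 5, and 33.9%, 31.2%, 22.6%, 41.9% and 39.6% in anti-CTLA-4 replicates 1 to 5. Every mouse was above its germline share (paired exact permutation p = 0.00195, the smallest 10 mice allow, adjusted p = 0.00244), and the result passed under all alternatives tested. Anti-CTLA-4 replicate 3 was the lowest mouse. It also held 23 of the 41 members with a junction copy. Over the 39 of these kept with germline variants left out, 13.2% of mismatches were at motif bases. Without the 3 kinds of doubtful member, its share was 37.0%.

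Motif shares were not shown to differ between the groups, at 33.8% ± 7.63 in anti-CTLA-4 and 40.8% ± 5.27 in isotype mice (exact permutation p = 0.135, adjusted p = 0.5 over 6 mutation kinds). With the 3 kinds of doubtful member left out, the means were 39.8% ± 3.20 and 43.1% ± 4.83, and the difference went from -6.98 to -3.35 percentage points. By mismatch number the share was highest at 4 mismatches and lowest at 20 or more. With germline variants left out, 38.3% of mismatches were at motif bases in weakly mutated clonotypes, 41.9% at 4 mismatches, 40.3% at 5 or 6, 41.0% at 7 to 12, 36.5% at 13 to 19 and 24.2% at 20 or more. These are pooled over clonotypes and given without a test. The within-mouse difference between members and weakly mutated clonotypes was -0.173 percentage points (adjusted permutation p = 0.988).

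Changes at A and T in the polymerase eta motif were more frequent in members than in weakly mutated clonotypes. These were the A of AA or TA and the T of TA or TT, which share no base with the AID motif and made up 18.3% ± 1.05 of the members' germline bases. They held 25.4% ± 2.504 of mismatches in members and 21.5% ± 3.56 in weakly mutated clonotypes (SD, n = 10), higher in 9 of 10 mice (paired exact permutation p = 0.00391, adjusted p = 0.0273 over 14 measures). The call was lost in 8 of the 10 fits that left out a mouse (adjusted permutation p = 0.0547, all but those without isotype replicates 1 or 3), with 3 mismatches as the minimum (0.126), weighted by count (0.805), with 1 clonotype per lineage (adjusted p = 0.266) and with a count of at least 2 (adjusted p = 0.729, 0.734 percentage points).

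G to A was the most frequent change, at 24.5% ± 3.92 of the members' mismatches with germline variants left out. A to G followed at 14.8% ± 2.65 and C to T at 13.8% ± 3.47, and T to G was the rarest at 1.77% ± 0.808 (SD, n = 10). Transitions made up 58.4% ± 4.24 of mismatches in members and 58.4% ± 5.74 in weakly mutated clonotypes. The groups were not shown to differ in transitions (59.7% ± 4.30 in isotype, 57.1% ± 4.20 in anti-CTLA-4, adjusted permutation p = 0.5). Of the 12 kinds of base change, 1 (8.33%) had groups that did not overlap. This was G to C, at 5% to 7.60% of mismatches in anti-CTLA-4 mice (5.68% ± 1.10) and 8% to 9.17% in isotype mice (8.66% ± 0.513). It stayed separate with germline variants left out (5% to 7.60% and 8.02% to 9.76%) and with the 3 kinds of doubtful member left out (4.36% to 7.5% and 7.84% to 9.69%). It was singled out after the values were seen and carries no test. Members of a lineage that share a change each count it. In isotype replicate 5, G92C and G189C were each in 9 of the 44 members of 1 IGHV1-80 lineage. In isotype replicate 1, G246C was in 7 of the 17 members of 1 IGHV1-69 lineage. In anti-CTLA-4 replicate 1, G57C and G251C were in all 5 members of 1 IGHV1-9 lineage. Base changes counted once per lineage are not given, so no group trait is read from this split.

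CDR1 and CDR2 carried more mismatches than their length. They held 16.5% ± 0.207 of aligned bases and 25.8% ± 4.50 of mismatches (SD, n = 10), with a higher share than their length in 10 of 10 mice (paired exact permutation p = 0.00195, adjusted p = 0.00244). The share was 22.5%, 23.4%, 26.8%, 33.9% and 32.0% in isotype replicates 1 to 5, and 24.6%, 24.03%, 19.6%, 22.4% and 28.3% in anti-CTLA-4 replicates 1 to 5. The 2 highest mice were both isotype, yet the groups overlapped (27.7% ± 5.07 against 23.8% ± 3.19, exact permutation p = 0.190, adjusted p = 0.5). Per 100 bases and with germline variants left out, CDR2 had 4.55 ± 0.995 mismatches and CDR1 3.61 ± 1.12. FR3 had 2.66 ± 0.733, FR2 1.96 ± 0.636 and FR1 1.43 ± 0.338, and the V bases inside the junction had 4.36 ± 0.7998 (SD, n = 10). By group, anti-CTLA-4 mice had the higher mean in FR1, FR2, CDR2 and FR3, and isotype mice in CDR1 (3.70 ± 1.51 against 3.52 ± 0.706) and in the junction (4.47 ± 0.794 against 4.26 ± 0.883). All 6 regions overlapped between groups. No test is given, because the mismatch number chose the members.

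**Figure D3:**
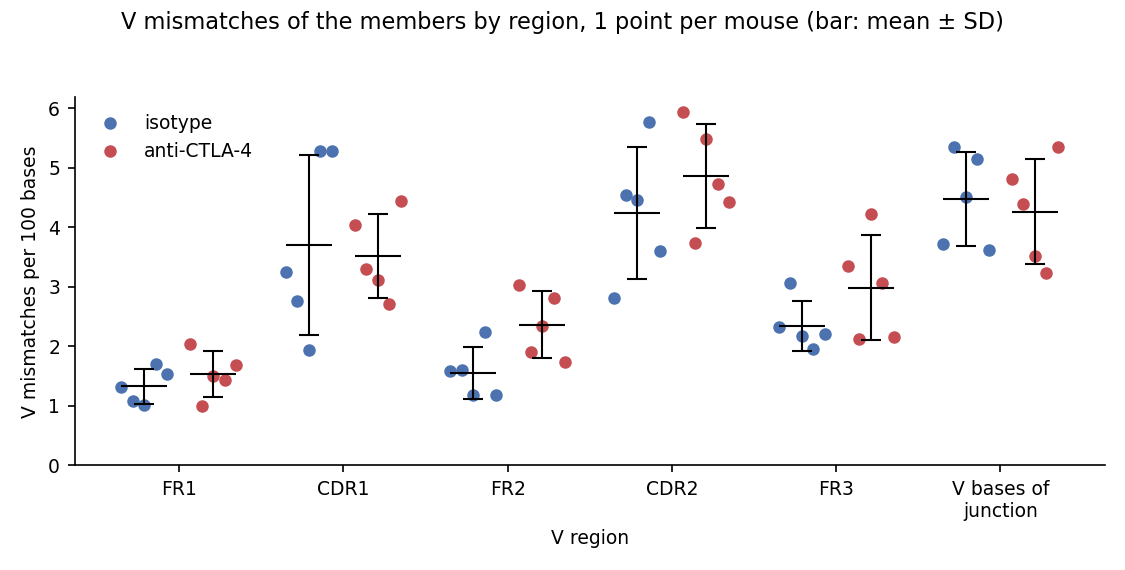
V mismatches per 100 aligned bases in each region of the members, with germline variants left out, 1 point per mouse, 5 mice per group, with mean and SD bars. CDR2 averaged 4.55 and FR1 1.43 over the 10 mice.

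Weakly mutated clonotypes had less of their mismatches in the CDRs, 19.9% ± 4.05 (SD, n = 10), below the members in 9 of 10 mice (paired exact permutation p = 0.00391, adjusted p = 0.0273). This call was lost in the same 8 of 10 fits that left out a mouse (adjusted permutation p = 0.0547), with 1 clonotype per lineage (adjusted p = 0.0684) and with a count of at least 2 (adjusted p = 0.292). The difference kept its direction in all of these, from 4.17 to 16.6 percentage points over all alternatives.

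Replacement was frequent in the CDRs and reduced in framework. In CDR1 and CDR2, 80.2% ± 4.78 of mismatches changed the residue, and in FR1 to FR3 64.7% ± 3.99 (SD, n = 10), with the CDR share higher in 10 of 10 mice (paired exact permutation p = 0.00195, adjusted p = 0.00244). Of all single-base changes possible at the same germline bases, 79.7% ± 0.581 would change the residue in the CDRs and 77.5% ± 0.228 in framework. The observed framework share was below the possible one in 10 of 10 mice, by 12.8 percentage points on average (adjusted permutation p = 0.00244, at most 0.0326 under any alternative). The CDR share was not shown to differ from the possible one (0.453 points, permutation p = 0.744). The possible share weighs each base and each change equally, although AID motifs and transitions were preferred. It also counts changes to a stop codon, which the productive rows used here would not hold. The part of these points in the CDR and framework comparisons was not tested.

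**Figure D4:**
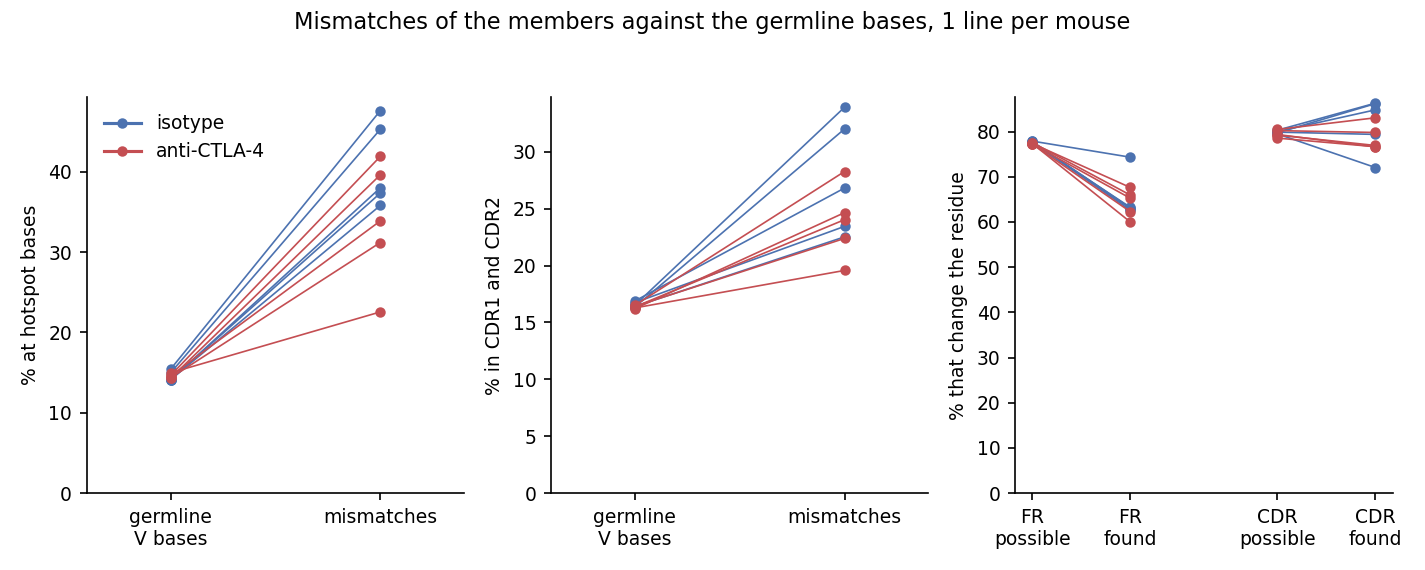
Left, percent of germline V bases and of the members' mismatches at AID motif bases. Middle, percent of each in CDR1 and CDR2. Right, percent of possible and of found single-base changes that alter the residue, in framework and in CDR. Each line is 1 mouse: all 10 rise in the left and middle panels, and all 10 fall in framework.

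Framework replacement in members was 64.7% against 71.2% ± 7.44 in weakly mutated clonotypes, lower in 8 of 10 mice (paired exact permutation p = 0.0195, adjusted p = 0.0547). It passed with a count of at least 2 (adjusted permutation p = 0.0273), with 1 clonotype per lineage (0.0182) and with each substitution counted once per lineage (0.0438), and its adjusted p over all alternatives ran from 0.0182 to 0.757. Among members, isotype replicate 3 had the highest framework replacement share, 74.3%, against 60.0% to 67.6% in the other 9 mice. The groups were not shown to differ in replacement in framework (64.2% ± 3.05 in anti-CTLA-4, 65.2% ± 5.09 in isotype, adjusted permutation p = 0.762) or in the CDRs (78.6% ± 2.82 and 81.7% ± 6.11, adjusted p = 0.5).

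Some single substitutions recurred in lineages of several mice. Of the 10 substitutions found in the most lineages, 9 were the changes that IgM also carried (8 of the IGHV14-1 and IGHV14-2 call and T202G of IGHV1-69). The other was IGHV1-26 G246A in FR3, a silent change of a glutamate codon, found in 6 of the 15 IGHV1-26 lineages over 5 mice and in 0.0226% of 8844 IgM clonotypes of that gene. With germline variants left out, it was followed by 6 substitutions found in 5 lineages each, all at a motif base. IGHV1-55 G92A turned serine to asparagine in CDR1 in 4 mice, 2 of each group, and IGHV1-55 C173T turned threonine to isoleucine in CDR2 in 4 mice. G170A turned glycine to aspartate in CDR2 of IGHV1-26 in 3 mice and of the IGHV1-72 and IGHV1-62-3 call in 4 mice. IGHV1-26 G30A and IGHV6-3 G9A were silent FR1 changes in 3 and 4 mice. IGHV1-55 also carried G92C, serine to threonine, at the same CDR1 base in 4 lineages of 2 mice. Each of these was in at most 0.412% of the IgM clonotypes of its gene.

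The germline contexts of 4 of these, with the changed base in capitals, place each in the motif: the G of GCT at IGHV1-55 base 92, the C of TAC at IGHV1-55 base 173, the G of GTA at IGHV1-26 base 170 and the G of GCT at IGHV1-26 base 246.
IGHV1-55 base 92: caccaGctact
IGHV1-55 base 173: tagtaCtaact
IGHV1-26 base 170: tggtgGtacta
IGHV1-26 base 246: atggaGctccg

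J segments, which did not enter the choice of members, were also more mutated in members. Mismatches were counted over the FR4 part of J. Members had 0.202, 0.363, 0.269, 0.323 and 0.473 J mismatches per 100 bases in isotype replicates 1 to 5, and 0.470, 0.307, 0.244, 0.548 and 0.396 in anti-CTLA-4 replicates 1 to 5. The mean was 0.360 ± 0.112, against 0.115 ± 0.0665 in unmutated clonotypes (SD, n = 10), higher in 10 of 10 mice (paired exact permutation p = 0.00195, adjusted p = 0.00521). Weakly mutated clonotypes lay between, at 0.199 ± 0.0433, below members in 8 of 10 mice (p = 0.00781, adjusted permutation p = 0.0365). That second call was lost in the same 8 of 10 fits without a mouse (adjusted permutation p = 0.0547 to 0.0729 in these), with a 3-mismatch minimum (0.0547) and with a count of at least 2 (0.0615), and the direction turned when clonotypes were weighted by count (a difference of -0.106 per 100 bases, adjusted p = 0.805). No difference between groups was shown in J mismatches of members (0.393 ± 0.122 in anti-CTLA-4, 0.326 ± 0.102 in isotype, permutation p = 0.373). Pooled over mice and given without a test, J had 0.320 mismatches per 100 bases in members with 4 to 6 V mismatches, 0.349 at 7 to 12, 0.708 at 13 to 19 (9 mismatches) and 0.440 at 20 or more (3 mismatches in 682 bases), so there was no steady rise. The 41 junction copies had 1 mismatch in 1271 J bases, too few for a comparison.

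Members rarely had an identical unswitched copy. For 59 of 734 members, IgM or IgD of that mouse held such a copy, whatever the mismatches in the rest of its V segment. The number ran from 0 of 30 in isotype replicate 4, which allows a share of up to 10%, to 20 of 126 in anti-CTLA-4 replicate 2. The mean was 6.82% ± 4.77 in members and 31.2% ± 10.1 in unmutated IgG (SD, n = 10), lower in members in 10 of 10 mice (paired exact permutation p = 0.00195, adjusted p = 0.00521). Against weakly mutated clonotypes (10.6% ± 5.39) the difference did not pass (adjusted permutation p = 0.0547). It did with germline variants left out, at 5.25% ± 3.89 against 9.54% ± 4.34, where no mouse was higher in members (adjusted permutation p = 0.0205, range over alternatives 0.0182 to 0.346). Counts differed between members and unmutated clonotypes, as given next, and their part in this difference was not tested.

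Members were also less counted than unmutated IgG. Their mean log2 count was 1.65 ± 0.41 against 3.39 ± 0.40 (SD, n = 10), lower in 10 of 10 mice (paired exact permutation p = 0.00195, adjusted p = 0.00521). Weakly mutated clonotypes had 1.45 ± 0.44, not shown to differ from members (adjusted permutation p = 0.284). A total of 30 members had an IgA copy in the same mouse. Junction length averaged 39.98 ± 2.24 bases in members and 41.3 ± 1.07 in unmutated clonotypes (adjusted permutation p = 0.165). Between groups, members' junctions were 41.2 ± 1.94 bases in anti-CTLA-4 and 38.7 ± 1.91 in isotype mice (p = 0.0794, adjusted permutation p = 0.278).

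**Figure D5:**
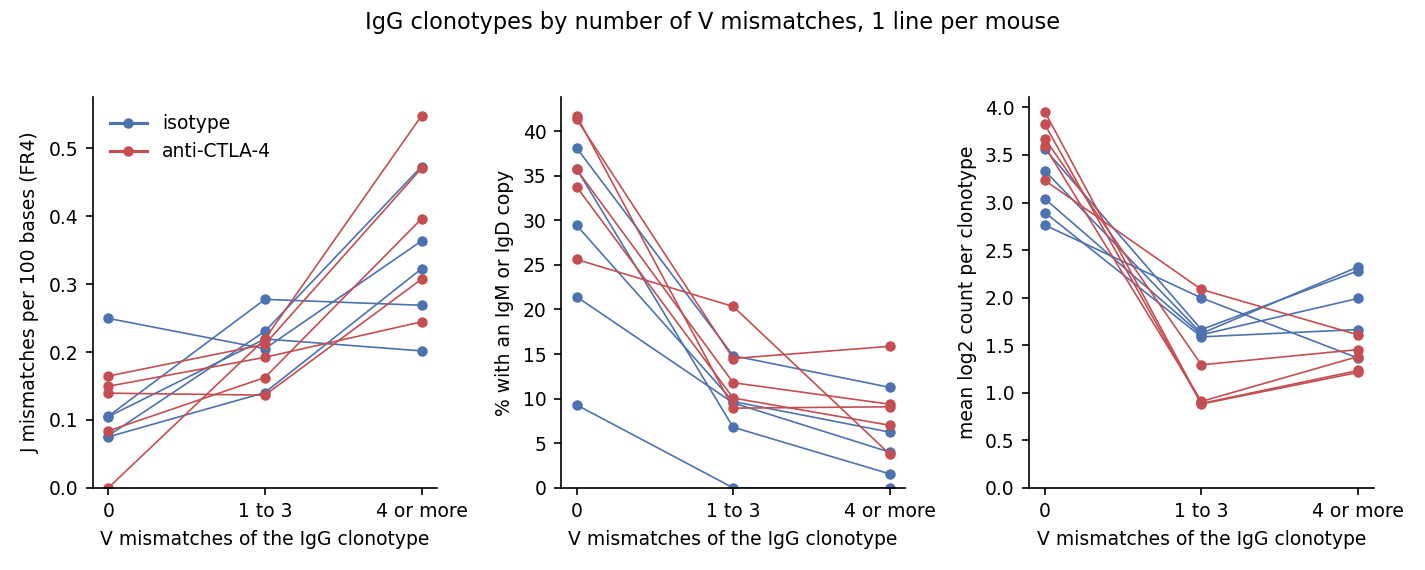
J mismatches per 100 bases of FR4 (left), percent of clonotypes with an IgM or IgD copy (middle) and mean log2 count (right), for IgG clonotypes with 0, 1 to 3 and 4 or more V mismatches, 1 line per mouse. From 0 to 4 or more mismatches, J mismatches rise and both other measures fall in all 10 mice.

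Members fell into 385 lineages, defined as clonotypes of 1 mouse with the same V and J gene, the same junction length and at least 90% junction identity to another of the lineage. Of these, 271 held a single member and 30 held 5 or more, together 257 members. IgM or IgD was found in 153 of the lineages, and 90 also held unmutated IgG. The share of members with IgM or IgD in the lineage was 40.8% ± 17.1 in anti-CTLA-4 and 25.6% ± 15.1 in isotype mice (SD, n = 5 each, exact permutation p = 0.167, adjusted p = 0.278). The groups overlapped, and the sign turned at 85% junction identity (a difference of -1.75 points).

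The largest lineage was an IGHV1-80 and IGHJ4 family in isotype replicate 5, with a 36-base junction. It held 44 of that mouse's 75 members (58.7%), all IgG2b, and 362 counts, 13.1% of the mouse's member counts. Its members carried 4 to 14 mismatches and 128 different substitutions, of which 74 were in 1 member and none was in 90% of them. The most widespread were C93T in 14 members, C71T and C83A in 12 each and G92A in 11. The lineage also held 13 IgG clonotypes below 4 mismatches, 1 of them unmutated, 3 IgA rows and no IgM or IgD row. The 3 members below, the most counted, the least and the most mutated, share no change in this window except G92A between the last 2.
IGHV1-80 germline: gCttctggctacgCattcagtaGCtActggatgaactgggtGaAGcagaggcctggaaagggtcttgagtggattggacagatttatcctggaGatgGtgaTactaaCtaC
most counted member: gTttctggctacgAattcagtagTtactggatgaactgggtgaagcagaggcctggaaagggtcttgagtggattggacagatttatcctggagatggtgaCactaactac
fewest mismatches: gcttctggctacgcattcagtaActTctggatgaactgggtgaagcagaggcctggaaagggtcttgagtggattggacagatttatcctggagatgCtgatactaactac
most mismatches: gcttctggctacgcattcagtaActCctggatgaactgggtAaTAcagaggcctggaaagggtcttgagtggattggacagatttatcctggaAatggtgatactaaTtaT

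The second largest, in isotype replicate 1, was an IGHV1-69 and IGHJ1 family of 17 members with a 51-base junction, 11 of them IgG2a/c and 4 IgG2b. They carried 5 to 11 mismatches, one of which was the T202G that IgM also carries, and 60 different substitutions, of which 53.3% were at AID motifs. C93T was in 8 members. No IgM, IgD, IgA or less mutated IgG row belonged to it. An IGHV10-1 and IGHJ1 family of isotype replicate 3, 1 of 3 lineages with 12 members, had 20 counts in all. It also held 20 less mutated IgG clonotypes, 5 of them unmutated, and 29 IgM rows, and 29.8% of its 57 substitutions were at motif bases.

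Of the 22 members with 20 or more mismatches, 10 had a junction copy or gaps. The next after the IGHV1-59 alignment shown above were an IGHV1-19 and IGHV1-64 joint call of anti-CTLA-4 replicate 3 (43 mismatches, 1 count) and an IGHV1-19 clonotype of anti-CTLA-4 replicate 2 (39 mismatches, 4 counts). These had different junctions, yet 37 of their substitutions were identical, and each of these 37 was also in 5.72% to 6.12% of 2729 IGHV1-19 IgM clonotypes. In the same way, IGHV4-1 members of anti-CTLA-4 replicates 1, 2 and 4 with different junctions shared 13 substitutions between bases 16 and 183, each in 6.17% of 1086 IgM clonotypes. Other shared sets were rare in IgM. IGHV1-9 members of isotype replicate 1 and anti-CTLA-4 replicate 3 shared 8 substitutions, each in at most 0.0656% of IgM clonotypes. IGHV1-75 members of isotype replicates 3 and 4 shared 6 (at most 0.0593%). IGHV14-1 members of anti-CTLA-4 replicates 2 and 3 shared 5 (0.0583% to 0.233%). In all, 12 members shared 5 or more substitutions with a member of another mouse after germline variants were left out. All 12 were kept, because the rule for germline variants takes changes in more than 50% of IgM. The origin of the shared sets was not tested.

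Further densely mutated lineages were seen in single mice. In anti-CTLA-4 replicate 1, 12 IGHV1-9 and IGHJ2 members with 36-base junctions, split into 2 lineages, carried 15 to 23 mismatches and 64 different substitutions over 279 counts. A lineage of 5 IgG2b members, among them the one shown above, shared 15 substitutions, and a lineage of 7 shared 8. A253G was held by all 12. An IGHV1-81 and IGHJ2 lineage of anti-CTLA-4 replicate 5 with 8 IgG2b members carried 8 to 19 mismatches, and none of its 53 substitutions was in all 8. An IGHV1-26 and IGHJ2 lineage of isotype replicate 2 carried 13 or 14 mismatches in each of 5 IgG2b members, 1 of them with gaps. These lineages were picked by their mismatch number after the values were seen and carry no test.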

How the data were processed

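Bulk B cell receptor libraries of 10 lymph node samples, 1 per mouse, were analysed from rearrangement tables. Libraries were made with a SMART-Seq mouse BCR kit with unique molecular identifiers, per the labels' protocols. Each row's count is the duplicate count that the authors deposited, per the file headers; no source used here names the aligner, the germline set or the handling of those identifiers. Libraries held 382184 to 790139 counts.

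Productive IgG heavy-chain rows were merged by V gene, J gene and junction per mouse, and mismatches were counted on the most counted row against the deposited germline alignment, from which CDR and FR limits and codons were also taken. Of 3956 merged clonotypes, 10 tied in counts between mice and went to the mouse listed first, and 2 with under 200 aligned V bases were left out. Germline variants are substitutions carried by more than 50% of a V call's IgM clonotypes, for calls with at least 20. The name does not tell an allele of these mice from a germline base of another gene in a joint call, which was not tested. The IGHV8-12 and IGHV8-5 joint call had 40 such changes and the IGHV8-8 and IGHV8-5 joint call 37, each with 0 members. All 68 V gene names of the members matched the RefSeq table (GRCm38.p6). Groups were compared over mice with two-sided exact permutation tests (252 reassignments, smallest p = 0.00794), and classes within mice with exact sign-flip permutation tests (1024 sign flips). P-values were Benjamini-Hochberg adjusted within each family of measures, with a threshold of 0.05. The members, lists and tests were chosen with earlier results of these data known. Genes named by rule were the V genes with most members, the 3 largest lineages, each mouse's most counted member, the 3 members with most mismatches, and the substitutions in most lineages. Python 3.11.15, numpy 2.4.6 and scipy 1.17.1 were used, and the tests were tested on simulated data. Alternatives varied the mismatch, length and count minimums, shared rearrangements, germline variants, lineages, weighting, V calls and left-out mice; leaving out junction copies, gapped alignments or leading members was added after seeing the data.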

Additional observations from a re-analysis of the deposited data

Results flagged for a closer look

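In 4 of 36 groups of 5 mice checked, 1 mouse stood apart from the other 4 of its group by Dixon's test (critical value 0.71), where chance flags about 1 group in 20. IgG1 made up 27.1% of members in isotype replicate 3, against 4.23% to 7.81% in the other isotype mice. In the same mouse, 74.3% of framework mismatches changed the residue, against 62.6% to 63.2%. Junctions of members averaged 37.9 bases in anti-CTLA-4 replicate 4, against 41.2 to 42.5 in the other anti-CTLA-4 mice. Isotype replicate 5 had 3.57 members per lineage, against 1.76 to 2.21, and holds the IGHV1-80 lineage of 44 members.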

How the results depend on the processing

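Of 46 results, 10 passed the threshold in the chosen setting. The 7 against germline bases or unmutated clonotypes (AID motif share, CDR share of bases, CDR against framework replacement, framework replacement against possible changes, J mismatches, IgM or IgD copy, mean log2 count) kept their direction and call under every alternative that was tested; the other 3 did not, and the alternatives added after seeing the data were given as values only. Differences below are in percentage points unless stated, members minus weakly mutated clonotypes as "within mice", anti-CTLA-4 minus isotype as "between groups".
With 3 or more mismatches (985 members), within mice J gave 0.199 per 100 bases and the WA or TW share 4.74, both no longer called, and the AID motif share turned to 3.78; between groups the count share became called at -10.9, and IgG2b turned to -3.10 and IgG2a/c to 1.13. With 6 or more (420 members), IgG2b within mice became called at 8.01, IgG2b between groups turned to -0.443 and CDR replacement against possible changes to -0.903. The count minimum of 2 was set on the most counted row and left 350 members. With it, calls were lost for J (0.176), WA or TW (0.734) and CDR share (4.17). Calls were gained for framework replacement (-7.91) and IgM or IgD copy (-7.97). There, log2 count turned to -0.17 and CDR replacement against possible to -1.76, and between groups the number turned to -5.2, WA or TW to 1.99, CDR share to 0.689 and framework replacement to 0.273. With 1 clonotype per lineage, WA or TW (2.06) and CDR share (4.76) lost their calls, framework replacement (-8.12) and IgM or IgD copy (-6.42) gained one, and against unmutated clonotypes junction length became called (-1.21 bases) and IgG3 turned to -0.0325. Weighted by count, J turned to -0.106 and the AID motif share to 2.35, WA or TW lost its call (2.76), and between groups CDR replacement turned to 1.66 and framework replacement to 1.28. With germline variants left out, the IgM or IgD copy difference became called (-4.29), and the AID motif share turned to 0.0717, transitions to -1.80 and CDR replacement against possible to -0.184. With each substitution once per lineage, framework replacement became called (-7.33), the AID motif share turned to 0.448 and transitions to -1.06. With V calls of several genes left out, IgM or IgD copy became called (-4.88), the AID motif share turned to 1.81, CDR replacement against possible to -0.0763, and between groups WA or TW to 0.438 and framework replacement to 0.194. Transitions also turned with shared rearrangements left out (-0.314) or kept in every mouse (-0.0802), and IgM or IgD in the lineage between groups turned at 85% junction identity (-1.75). The causes were not tested.
Leaving out 1 mouse at a time, within-mouse differences ran from 0.141 to 0.180 for J, 3.30 to 4.45 for WA or TW, 5.09 to 6.66 for CDR share, 6.19 to 10.4 for IgG2b, -7.79 to -5.21 for framework replacement, -1.22 to 1.15 for AID motifs and -1.22 to 0.875 for transitions. Against unmutated clonotypes they ran from -9.57 to -5.55 for IgG2a/c and -1.32 to 2.24 for IgG3, and CDR replacement against possible from -0.214 to 1.33. Between groups they ran from 0.8 to 19.6 for the number of members, -10.6 to -2.86 for the clonotype share, -9.23 to -3.67 for the count share, -1.13 to 10.2 for IgG1, -2.96 to 6.61 for IgG2b, -6.32 to 0.944 for IgG2a/c, -1.57 to 0.429 for WA or TW and -1.88 to 1.25 for framework replacement.
No pairing by replicate number was seen: correlations of same-numbered mice's deviations ran from -0.134 to 0.0588. Such correlations cannot exclude a pairing. With a replicate block, 0 of the 18 group results passed and 0 had an unadjusted exact permutation p under 0.05 (smallest 0.0625, for the IgM or IgD copy), and the number of members differed by 12.4 (p = 0.4375). Of the members, 345 had a count of 1. For 384 members, the row that gave the mismatches had a count of 1, where a sequencing error cannot be told from a mutation. Both groups had 5 mice, which limits the smallest p.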
